A study of Mus musculus with 12 samples.

Results

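CD8 T cells taken from MC38 tumors were compared with the splenic CD27loCX3CR1lo subset of the same experiments, 3 libraries against 3 of the 12 libraries in the series. MC38 is a colon adenocarcinoma line of C57BL/6 origin, and the study treated the tumor-bearing female C57BL/6 mice of all these groups with antibodies against CTLA-4 and PD-L1, so no untreated library enters this comparison. The splenic cells were flow-sorted as CD8+ T cells low for both CD27 and CX3CR1, whereas tumor-infiltrating lymphocytes (TILs) were enriched with a CD8a positive-selection kit. The tissue and the way of isolation therefore cannot be told apart. Mice were pooled within an experiment, and the experiment code in the sample titles, written here as A, B and C, pairs each TIL library with its splenic library. The files hold receptor rearrangements and no marker genes, so the sorted phenotype could not be checked against expression. Where no subset is named below, spleen and splenic mean the CD27loCX3CR1lo subset.

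Each library is a survey of the T-cell receptor β chain in genomic DNA. A β chain is built by joining a V, a D and a J gene segment, with non-templated bases inserted at both joints, and the joined stretch encodes the complementarity-determining region 3 (CDR3), the loop that mostly contacts the presented peptide. A clone is here 1 nucleotide rearrangement, and its templates are the value in the files' count column. Whether that column was corrected for unequal amplification between primers is not given in the sources used here, which bears on every share by template. Expanded clones hold many templates, so V and J use was read both by unique rearrangement, where each clone counts once, and by template. CD27 is a costimulatory receptor that is lost on differentiated CD8 T cells, and CX3CR1 is the fractalkine receptor carried by effector-type cells.

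The productive (in-frame, without stop codon) rearrangements numbered 12986, 12910 and 15489 in the splenic libraries A, B and C, with 18378, 18180 and 21622 templates. The TIL libraries held 1359, 1550 and 2173 rearrangements with 5893, 12388 and 20951 templates. TIL A was the shallowest of the 6. In TILs 22, 24 and 27 clones held 50% of the templates, against 3944, 3923 and 4678 in the spleen. Clones of at least 1% numbered 12, 21 and 24 in TILs and 0 in each splenic library.

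The V-J combination with the smallest adjusted p between TILs and the spleen joined TCRBV19-01 to TCRBJ02-01. In the mouse genome (GRCm38.p6, RefSeq) Trbv19 lies at chr6:41178589-41179048 and Trbj2-1 at chr6:41542754-41542803. Among the 2 CDR3s of this pair found in all 3 TIL libraries, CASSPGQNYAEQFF held the most TIL templates. It was built from 8 rearrangements over the 6 libraries, 7 of them distinct over the CDR3. The most abundant 4, which encode the same residues, are given. Over the CDR3 the third and the last are each 1 base away from the first. In TIL C the first was far more abundant, with 314 templates against 23 and 14. Such near variants are left out of a fit described below. In TILs A and B the third held more templates than the first (3 against 1 and 16 against 7). Whether the third and the last arose from separate joints in TIL C was not tested. In the spleen the first had 12 templates in library C, the third 3 in each of B and C, and the last 1 in C. The second was not seen there. Bases run 5′ to 3′ from the cysteine codon, with inserted bases in capitals, and lack the codon of the last residue, since the 87-base read ends before it.
First, with 314 templates in TIL C: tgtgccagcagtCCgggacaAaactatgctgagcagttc
Next, with 53 templates in TIL C: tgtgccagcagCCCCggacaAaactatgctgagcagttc
Next, with 23 templates in TIL C and 16 in TIL B: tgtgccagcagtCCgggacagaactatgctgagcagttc
Last, with 14 templates in TIL C: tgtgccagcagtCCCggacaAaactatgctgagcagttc

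Among productive rearrangements, TCRBV19-01 with TCRBJ02-01 made up 0.993%, 0.945% and 0.936% in the splenic libraries A, B and C. In the TIL libraries A, B and C it made up 2.28%, 3.55% and 3.68%, that is 31, 55 and 80 rearrangements. The groups did not overlap, which was also so for 46 of the 203 pairs tested (22.7%, this pair included). The fitted change was 3.35-fold (log2 fold 1.75 ± 0.19 SE, edgeR quasi-likelihood test with experiment as a block, adjusted p = 2.60909e-16, higher in 3 of 3 experiments). This p rests on a spread pooled over all tested pairs and not on the spread of this pair alone. With DESeq2 under a mean dispersion, the fit run first, the pair missed the threshold (log2 fold 1.76 ± 0.48 SE, adjusted p = 0.0530). After that value was seen, parametric and local dispersion trends were tried in DESeq2, 3 fits in all, and adjusted p was 1.74e-08 with the parametric trend and 5.26e-09 with the local one. In all, 2 of 203 pairs passed in the edgeR fit, which is 0.985% of those tested, and the median log2 fold over the 203 was -0.08.

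**Figure D1:**
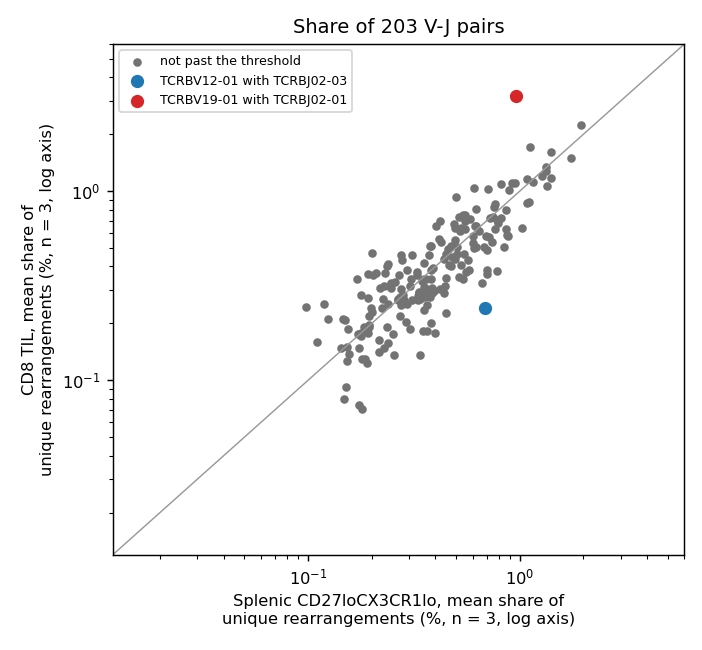
Mean share of unique rearrangements with a named V and J gene, for 203 V-J pairs in splenic CD27loCX3CR1lo cells (x axis, %, log scale) and CD8 TILs (y axis, %, log scale), 3 libraries each, with the line of equal share. The pair TCRBV19-01 with TCRBJ02-01 lies at 0.96% and 3.18%, above the cloud of the other pairs, and TCRBV12-01 with TCRBJ02-03 lies below it at 0.68% and 0.24%.

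Summed over their other partners, the 2 genes of the pair gave overlapping values. TCRBV19-01 joined to any other J gene made up 6.45%, 6.74% and 6.29% of splenic rearrangements and 6.92%, 5.74% and 6.90% of TIL rearrangements. TCRBJ02-01 joined to any other V gene made up 11.1%, 11.3% and 11.1% in the spleen and 10.8%, 11.1% and 11.2% in TILs. Single combinations behind these sums moved in both directions, and none but the pair itself passed the threshold. TCRBV29-01 with TCRBJ02-01 stood at 0.663%, 1.16% and 1.30% in TILs and 0.647%, 0.652% and 0.536% in the spleen (log2 fold 0.83 ± 0.26 SE, edgeR, adjusted p = 0.121), and TCRBV13-02 with TCRBJ02-01 at 0.663%, 0.517% and 0.740% against 0.986%, 1.05% and 1.05% (log2 fold -0.67 ± 0.28 SE, edgeR, adjusted p = 0.243).

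By template the pair held 0.843%, 0.908% and 0.851% of splenic libraries and 17.4%, 2.39% and 5.69% of TIL libraries. In TIL A 1 clone gave 801 of the pair's 1026 templates. Without the largest clone of each library, the pair still held 4.42%, 1.60% and 4.26% of TIL templates against 0.816%, 0.864% and 0.796% in the spleen. The other splenic subsets gave 0.946%, 0.992% and 0.990% of rearrangements (CD27hiCX3CR1lo) and 1.59%, 1.66% and 1.41% (CX3CR1hi), the latter between the splenic CD27loCX3CR1lo and TIL values.

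**Figure D2:**
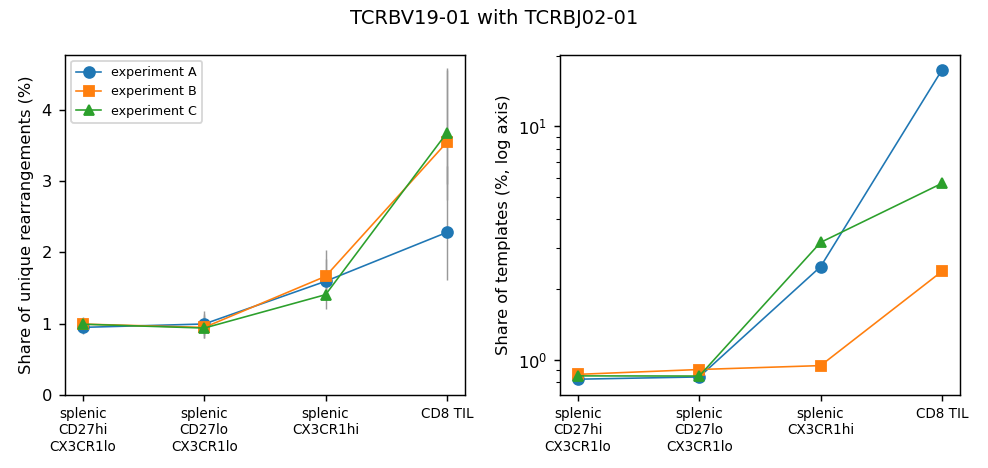
Share of TCRBV19-01 with TCRBJ02-01 in the 4 CD8 groups, by unique rearrangement (left, %, with 95% Wilson intervals for counting error) and by template (right, %, log scale), with 1 line per experiment. In each experiment the TIL value is the highest of the 4 on both scales.

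Rearrangements 1 base away from one at least 10 times as abundant in the same library numbered 2, 2 and 9 in TILs A, B and C, of which 0, 1 and 4 belonged to the pair. Without them the log2 fold was 1.72 ± 0.19 SE (edgeR, adjusted p = 9.01e-16). When each CDR3 amino acid sequence counted once per V-J pair, it was 1.65 ± 0.18 SE (edgeR, adjusted p = 7.54e-16). Without CDR3 sequences found in more than 1 of the 6 libraries, it was 1.48 ± 0.25 SE (edgeR, adjusted p = 2.39e-06).

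The CDR3s of this pair were looked at after the pair had been singled out, so the following is description without a test. A length of 14 residues was found in 67.7%, 81.8% and 70.0% of the pair's TIL rearrangements and in 44.2%, 50.8% and 42.1% of its splenic CD27loCX3CR1lo ones. It was found in 59.6%, 62.4% and 53.4% of the pair's splenic CX3CR1hi rearrangements and in 35.5%, 36.9% and 35.3% of its CD27hiCX3CR1lo ones. Over all productive rearrangements that length made up 30.1%, 32.6% and 31.8% in TILs and 30.5%, 30.7% and 30.1% in the spleen. Of the 14-residue members, 95.2%, 93.3% and 96.4% in TILs ended in YAEQFF, against 77.2%, 85.5% and 77.0% in splenic CD27loCX3CR1lo cells. This ending was found in 89.7%, 91.4% and 81.4% of such CX3CR1hi rearrangements and 73.4%, 79.9% and 73.3% of such CD27hiCX3CR1lo ones. Glycine at position 6, counted from the cysteine, was found in 94 of 122 such TIL rearrangements and 93 of 180 splenic ones. Glutamine at position 7 was found in 44 of 122 and 30 of 180, and proline at position 5 in 43 of 122 and 45 of 180.

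Of the pair's 125 distinct CDR3s in TILs, 14 occurred in at least 2 TIL libraries, or 11.2%, whereas 3.61% of all 4596 TIL CDR3s did. Of its 351 distinct CDR3s in the spleen, 18 occurred in at least 2 splenic libraries. The share over all splenic CDR3s is not given here. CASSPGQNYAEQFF with this V and J held 0.0679%, 0.202% and 1.97% of TIL templates, and 0, 0.0605% and 0.0786% of splenic templates. In splenic A no template of it was seen with this pair, which allows a share of up to 0.0163%. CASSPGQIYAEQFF was also in all 3 TIL libraries, at 0.0509%, 0.823% and 0.00477%. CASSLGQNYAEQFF reached 1.14% in TIL A and 0.463% in TIL C and was not seen in TIL B. These levels differed widely between experiments.

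The second pair past the threshold, TCRBV12-01 with TCRBJ02-03, was lower in TILs (log2 fold -1.41 ± 0.39 SE, edgeR, adjusted p = 0.0370). It made up 0.0736%, 0.323% and 0.324% of TIL rearrangements (1, 5 and 7 rearrangements) against 0.709%, 0.690% and 0.653% in the spleen, with no overlap. It missed the threshold without each experiment in turn (adjusted p 0.158 to 0.179) and with DESeq2 (adjusted p = 0.999).

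By unique rearrangement, 0 of 23 V genes passed the threshold (0.0%, edgeR). At an unadjusted p under 0.05 there were 3, and DESeq2 called 0. TCRBV19-01 was the V gene with the highest TIL share, at 9.69% ± 0.77 (SD, n = 3) against 7.45% ± 0.23 in the spleen (log2 fold 0.38 ± 0.16 SE, edgeR, adjusted p = 0.205). TCRBV12-01 stood at 5.89% ± 1.22 in TILs and 8.05% ± 0.09 in the spleen (log2 fold -0.45 ± 0.17 SE, edgeR, adjusted p = 0.205). TCRBV05-01 stood at 6.22% ± 0.75 and 4.86% ± 0.18 (edgeR, adjusted p = 0.319). For these 3 genes the groups did not overlap, as for 5 of the 23. TCRBV13-02, the leading splenic V gene, stood at 8.71% ± 1.38 and 9.27% ± 0.07, TCRBV03-01 at 7.31% ± 0.51 and 6.68% ± 0.15, TCRBV16-01 at 6.10% ± 0.85 and 6.58% ± 0.17, and TCRBV13-01 at 6.41% ± 1.09 and 6.33% ± 0.15. For these genes TIL and splenic values overlapped. The summed TCRBV12 family held 10.5% ± 2.53 in TILs and 13.8% ± 0.17 in the spleen, and TCRBV13 held 20.8% ± 1.26 and 22.1% ± 0.49. For out-of-frame rearrangements 0 of 24 V genes passed (0.0%, edgeR), with 2 at an unadjusted p under 0.05 and 0 by DESeq2.

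By template, TCRBV30-01 passed, 1 of 24 V genes (4.17%, edgeR). It held 0.261%, 0.303% and 0.259% of splenic templates and 0.0509%, 0.0404% and 0.0143% of TIL templates (log2 fold -3.13 ± 0.72 SE, edgeR, adjusted p = 0.00160). The TIL values come from 3, 5 and 3 templates, and the gene missed the threshold without each experiment in turn (adjusted p 0.0878 to 0.368). By unique rearrangement it stood at 0.221%, 0.323% and 0.0920% in TILs, overlapping the spleen. Shares by template did not overlap between the groups for 9 of the 24 V genes (37.5%), and the following genes were chosen after their values were seen. TCRBV12-02 held 1.32%, 2.05% and 3.01% of TIL templates against 6.07%, 5.57% and 5.61% in the spleen (log2 fold -1.50 ± 0.57 SE, edgeR, adjusted p = 0.0947). TCRBV20-01 held 1.09%, 1.61% and 0.382% against 2.87%, 2.35% and 2.47% (log2 fold -1.54 ± 0.59 SE, edgeR, adjusted p = 0.0947). TCRBV17-01 held 8.89%, 6.34% and 4.59% of TIL templates against 2.52%, 2.65% and 2.63% in the spleen (edgeR, adjusted p = 0.104), and its largest clone gave 79.6%, 41.0% and 41.0% of that gene's TIL templates. TCRBV01-01 reached 13.2% in TIL C, where 1 clone gave 75.7% of its templates.

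J gene use by unique rearrangement differed in 1 of 12 genes (8.33%, edgeR). TCRBJ02-01 made up 13.1%, 14.7% and 15.0% in TILs and 12.1%, 12.2% and 12.1% in the spleen (log2 fold 0.24 ± 0.06 SE, edgeR, adjusted p = 0.00657). Without the rearrangements that joined it to TCRBV19-01 the log2 fold was 0.02 ± 0.07 SE (edgeR, adjusted p = 0.895). The call also missed the threshold without experiment B (adjusted p = 0.211), without experiment C (adjusted p = 0.489) and at equal depth (adjusted p = 0.110). The TCRBJ01 cluster as a whole held 33.1% ± 1.27 of TIL and 34.7% ± 0.07 of splenic rearrangements. By template 0 of 12 J genes passed (0.0%, edgeR), with 3 at an unadjusted p under 0.05 and 1 by DESeq2, TCRBJ02-01. Among templates with a named J gene it held 30.7%, 11.5% and 24.3% in TILs against 10.3%, 10.6% and 10.4% in the spleen (log2 fold 0.98 ± 0.37 SE, edgeR, adjusted p = 0.0834). Of all productive templates in TIL C it held 22.5%. TCRBJ01 genes together held 23.0% ± 3.81 of TIL templates with a named J gene and 33.4% ± 0.25 of such splenic ones. Template counts per clone differed between J genes in both groups. Of splenic rearrangements with TCRBJ01-01, 96.4% ± 0.52 (SD, n = 3) had a single template, against 21.7% ± 1.81 with TCRBJ02-07, and in TILs these shares were 79.4% ± 7.04 and 21.3% ± 2.97. Its part in the J results by template was not tested.

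CDR3 composition was counted over the residues left after removing 4 from each end, which the V and J genes mostly encode. Aspartate, an acidic residue, made up 8.20%, 7.74% and 7.64% in TILs and 8.98%, 8.77% and 9.05% in the spleen (log2 fold -0.19 ± 0.04 SE, edgeR, adjusted p = 0.000432). Tyrosine (log2 fold 0.15 ± 0.05 SE), tryptophan (0.20 ± 0.06 SE) and methionine (0.53 ± 0.18 SE) were higher in TILs (edgeR, adjusted p = 0.0223 for each). These are 4 of 20 residues (20%). Without the TCRBV19-01 TCRBJ02-01 pair aspartate (-0.16, edgeR, adjusted p = 0.00111) and tryptophan (0.21, edgeR, adjusted p = 0.0293) still passed, while tyrosine and methionine did not (edgeR, adjusted p 0.300 and 0.515). No residue passed with DESeq2, with TMM scaling, at equal depth or without experiment C. With a minimum of 2 templates tyrosine passed as lower in TILs (log2 fold -0.20, edgeR, adjusted p = 0.0164). As classes, acidic residues held 12.3% ± 0.71 in TILs and 13.7% ± 0.07 in the spleen, aromatic ones 8.83% ± 0.34 and 7.99% ± 0.15, basic ones 7.33% ± 0.25 and 7.18% ± 0.04, and aliphatic ones 17.5% ± 0.57 and 17.2% ± 0.10.

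**Figure D3:**
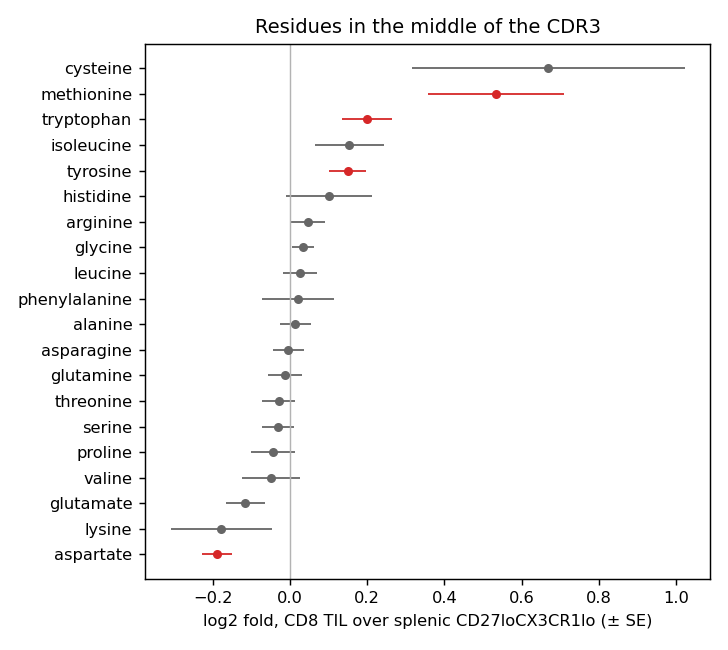
Log2 fold of each residue's share in the middle of the CDR3, CD8 TILs over splenic CD27loCX3CR1lo cells (x axis, with SE, 3 paired experiments). Red marks an adjusted p under 0.05 in the edgeR fit, with aspartate lower and tyrosine, tryptophan and methionine higher in TILs.

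The mean length by unique rearrangement was 13.96, 13.94 and 13.97 residues in TILs and 13.95, 13.96 and 13.95 in the spleen, a mean difference of 0.00528 residues (exact sign-flip test over 3 pairs, two-sided, p = 1). Inserted bases averaged 3.42, 3.56 and 3.49 in TILs and 3.46, 3.44 and 3.45 in the spleen, a difference of 0.0420 ± 0.0794 (SD, n = 3 pairs, exact sign-flip p = 0.5), which was 0.00119 without experiment B and 0.0804 without experiment A. With a minimum of 2 templates the mean length difference was 0.195 ± 0.0195 residues (SD, n = 3 pairs, exact sign-flip p = 0.25), and at equal depth 0.0470 ± 0.0252 (exact sign-flip p = 0.25). With 3 pairs that test cannot go below 0.25. Of 9 lengths, 0 passed (0.0%, edgeR), with 4 at an unadjusted p under 0.05 and 0 by DESeq2.

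TIL and splenic libraries of the same experiment shared 84, 159 and 240 clones. These clones made up 6.18%, 10.3% and 11.0% of TIL rearrangements and 0.647%, 1.23% and 1.55% of splenic ones. They held 37.6%, 51.4% and 60.9% of TIL templates but 1.45%, 3.16% and 4.81% of splenic templates. The difference was 46.8 percentage points, in the same direction in 3 of 3 experiments (exact sign-flip p = 0.25, the smallest possible). The same clones are set against far fewer TIL than splenic rearrangements, and few clones hold most TIL templates. This direction was thus largely set in advance, and the test adds no support. When every library was drawn to 5893 templates, 42.95, 73.75 and 92.6 clones were shared on average over 20 draws, holding 20.8%, 40.3% and 40.3% of TIL templates. Libraries of different experiments, which come from different mice, shared 14 to 30 rearrangements, holding 2.99% to 8.08% of TIL templates over 6 such combinations.

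**Figure D4:**
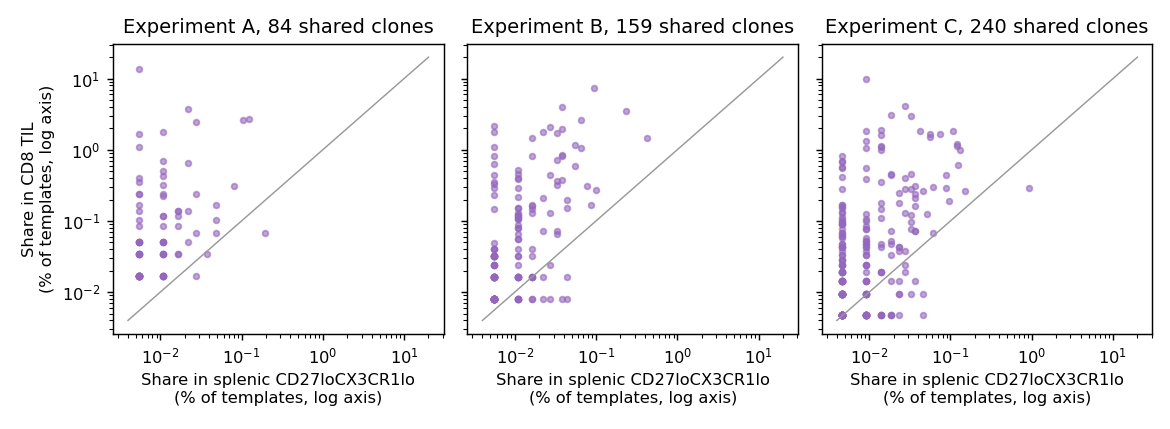
Share of templates of each clone found in both libraries of an experiment, in splenic CD27loCX3CR1lo cells (x axis, %, log scale) and CD8 TILs (y axis, %, log scale), with the line of equal share. Of the 84, 159 and 240 shared clones, 81, 140 and 206 lie above the line. These include all clones with a single template in both libraries, since each TIL library holds fewer templates.

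Most shared clones held a larger share in the tumor, with a median ratio of TIL to splenic share of 5.72, 3.49 and 3.10. The lowest measurable share differs between libraries with their depth, since 1 template was 0.0170% of TIL A and 0.00544% of splenic A. Counted by templates, 38, 71 and 109 of the shared clones were single in the spleen, and 16, 28 and 29 were single in both libraries. Clones single in both always count as larger in the tumor, since each TIL library holds fewer templates than its splenic library. The median ratios include them. The share of clones found in the other library was lower at lower abundance. Of the 10 most abundant TIL clones, 7, 6 and 10 were found in the splenic library, and of the next 90, 23, 45 and 46. Of TIL clones ranked above 500, 2.91%, 5.14% and 5.50% were found. Conversely, 3, 7 and 9 of the 10 leading splenic clones were found in TILs, and 0.505%, 0.911% and 1.08% of those ranked above 500.

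**Figure D5:**
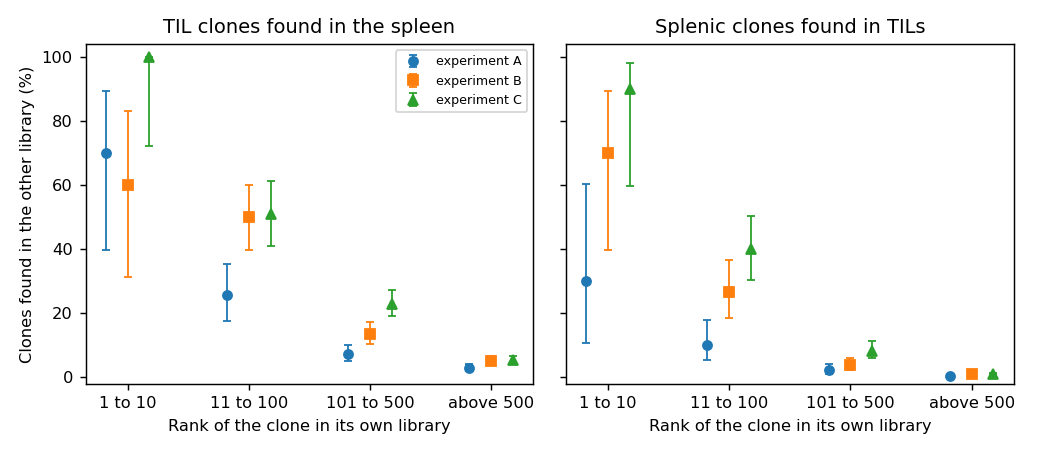
Share of clones found in the other library of the experiment (y axis, %, with 95% Wilson intervals for counting error) by the rank of the clone in its own library (x axis), for TIL clones sought in the spleen (left) and splenic clones sought in TILs (right). The found share is highest for ranks 1 to 10 and lowest above 500 in all 3 experiments on both sides.

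The largest TIL clone was at 1 or 2 templates in the splenic CD27loCX3CR1lo library in experiments A and C. In the splenic CX3CR1hi libraries the largest TIL clones of A, B and C held 0.724%, 0.433% and 0.746% of templates. The sequences of these leading clones are given to show which receptors the shares belong to, with inserted bases in capitals.
TIL A, TCRBV19-01 with TCRBJ02-01: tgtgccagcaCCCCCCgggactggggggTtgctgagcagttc
TIL B, TCRBV12-01 with TCRBJ02-05: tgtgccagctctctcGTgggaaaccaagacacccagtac
TIL C, TCRBV01-01 with TCRBJ02-07: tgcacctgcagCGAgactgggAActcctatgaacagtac

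The TIL A clone held 13.6% of TIL templates (95% Wilson interval 12.7% to 14.5%) and 1 template in the spleen, 0.00544% (0.000961% to 0.0308%). The TIL C clone held 9.98% (9.58% to 10.4%) and 2 splenic templates, 0.00925% (0.00254% to 0.0337%). The TIL B clone, which encodes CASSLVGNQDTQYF, held 7.43% (6.99% to 7.91%) and had rank 4 in the spleen at 0.0935% (0.0584% to 0.150%). The next shared clones of TIL A encoded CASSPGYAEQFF (3.68% against 0.0218%) and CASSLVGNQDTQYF (2.68% against 0.125%). Those of TIL B encoded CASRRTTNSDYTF (3.99% against 0.0385%) and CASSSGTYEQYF (3.56% against 0.237%). Those of TIL C encoded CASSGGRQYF (4.16% against 0.0277%) and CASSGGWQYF (3.05% against 0.0185%), both with TCRBV13-01 and no J gene named in the files, so they are left out of the J counts. Intervals cover counting error only.

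Clones that led the splenic library held larger shares in TILs in some cases and smaller shares in others. Splenic B was led by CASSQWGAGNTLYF at 0.429% of templates, which held 1.44% in TILs. Splenic C was led by a rearrangement of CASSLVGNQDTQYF at 0.916% (0.797% to 1.05%), and the same rearrangement held 0.291% in TILs (0.227% to 0.374%). Over all rearrangements of that CDR3 the shares were 1.14% in splenic C and 3.52% in TIL C. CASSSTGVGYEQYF, the splenic A clone with most templates among those shared, held 0.196% in the spleen (0.142% to 0.271%) and 0.0679% in TILs (0.0264% to 0.174%). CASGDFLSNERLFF in experiment C stood at 0.153% in the spleen and 0.263% in TILs. In the CX3CR1hi library of its experiment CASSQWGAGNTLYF held 17.5% of templates. There the splenic C leader held 0.614%, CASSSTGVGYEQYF 0.911% and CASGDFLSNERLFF 0.790%.

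Some of the largest TIL clones were not seen in the splenic CD27loCX3CR1lo library at all. The second clone of TIL A, with TCRBV17-01 and TCRBJ02-02, held 7.08% of templates, at least 433-fold above the splenic limit of 0.0163% (3 counts in that library). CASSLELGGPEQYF held 3.82% in TIL A, at least 234-fold above the same limit. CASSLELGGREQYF, with the same V and J genes, held 2.46% in TIL B, at least 149-fold above the splenic limit of 0.0165%. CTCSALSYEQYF held 1.52% in TIL C, at least 109-fold above 0.0139%. Each of these 4 clones was found in the splenic CX3CR1hi library of its experiment, which was deeper, with 55776, 50994 and 113660 templates in A, B and C.

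At matched depth, splenic CD27loCX3CR1lo clones covered 37.6%, 51.4% and 60.9% of TIL templates, against 15.2%, 33.7% and 28.6% for CD27hiCX3CR1lo and 61.8%, 81.6% and 81.4% for CX3CR1hi clones. The difference from each was in the same direction in 3 of 3 experiments (24.2 percentage points above CD27hiCX3CR1lo and -25.0 against CX3CR1hi, exact sign-flip p = 0.25 for both, the smallest possible). Of the clones shared by TILs and CD27loCX3CR1lo cells, 84.5%, 86.8% and 88.8% were also found in the CX3CR1hi library at its full depth. Those clones held 94.2%, 99.0% and 92.2% of the shared clones' TIL templates.

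By CDR3 amino acid sequence, 8 CDR3s occurred in all 6 libraries, whereas 24 occurred in all 3 TIL and 432 in all 3 splenic libraries. The 8 held 3.24%, 11.3% and 7.58% of TIL templates and 0.310%, 0.726% and 1.47% of splenic ones. For 4 of the 8 the TIL share was the higher in every experiment, and for the other 4 in 2 of 3. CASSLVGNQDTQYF led them, built from 16 rearrangements in all. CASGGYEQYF followed, at 0.272%, 1.01% and 1.70% of TIL templates and 0.0272%, 0.0715% and 0.0462% of splenic ones, with no overlap. Its leading rearrangement needed no inserted base and was the same in TILs A, B and C and in splenic A and B.
TIL and spleen, TCRBV13-02 with TCRBJ02-07: tgtgccagcggtgggtatgaacagtac

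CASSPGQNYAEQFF was the only member of the 8 for which TCRBV19-01 with TCRBJ02-01 was the main pair. Over all V and J genes it held 0.0679%, 0.202% and 1.98% in TILs and 0.0163%, 0.0605% and 0.0879% in the spleen. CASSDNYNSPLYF, with TCRBV19-01 and TCRBJ01-06, stood at 0.0509%, 0.0161% and 0.0430% in TILs and at 0.00544%, 0.00550% and 0.00925% in the spleen, where it rested on 1, 1 and 2 templates. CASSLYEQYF and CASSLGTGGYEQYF differed less, with TIL means of 0.0242% and 0.0589% against splenic means of 0.0189% and 0.0547%. The remaining 2 were 15-residue CDR3s of TCRBV03-01 with TCRBJ01-03, with TIL means of 0.125% and 0.108% and splenic means of 0.0502% and 0.0217%, and the TIL range overlapped the splenic range in both.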

How the data were processed

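The authors prepared libraries from genomic DNA with the ImmunoSEQ kit, and the deposited files give template counts per rearrangement as processed on that platform, with V, D and J genes already assigned (mm10 per the labels). The platform's version is not given in the sources used here. Productive rows of 6 libraries were compared, with those of the other 6 used for the pair's share, the coverage of TIL clones and 1 alternative fit. Rows without a V (0 to 1 per library) or J gene (1 to 17) left the gene counts. In TIL C those without a J gene included the clones ranked 2 and 3, with 871 and 639 templates. Shares by J gene and template are of the templates that remained.

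Features were tested with edgeR 4.0.16 (quasi-likelihood, common dispersion, library totals, filterByExpr, experiment as a block) in R 4.3.3, with Benjamini-Hochberg adjustment and a threshold of 0.05. The edgeR fit was tested on simulated counts that had the same spread for all features and no experiment effect. That test therefore cannot show how the fit does when features differ in spread. DESeq2 1.42.0 with a mean dispersion was an alternative. Single values used exact sign-flip tests. The pairing comes from the shared experiment. By unique rearrangement, deviations of paired libraries correlated at -0.0048, 0.020 and 0.068 for V-J pairs, 0.63, -0.26 and 0.34 for V genes and -0.34, 0.085 and 0.52 for J genes. These values show no steady pairing. Residues (0.95, 0.32 and 0.85) and lengths (0.65, 0.56 and 0.88) gave positive correlations in every experiment. All 36 tested V and J genes matched RefSeq symbols. Replicates are separate experiments.

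Named were V genes past the threshold or among the 5 highest by unique rearrangement in either group (TCRBV12-02, TCRBV20-01, TCRBV17-01 and TCRBV01-01 by template, and 2 further V-J pairs, were added after their values were seen), J genes, residues and pairs past it, clones from the 3 leading ones of each kind per experiment, and CDR3s in all 6 libraries. The comparison and the lists were chosen with earlier results of these data known, and 7 alternatives (further DESeq2 dispersion fits among them) were added after values had been seen.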

Additional observations from a re-analysis of the deposited data

Results flagged for a closer look

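Among out-of-frame rearrangements, which encode no receptor and enter none of the productive comparisons, TCRBV19-01 with TCRBJ02-01 held 2.39%, 1.46% and 1.64% in TILs A, B and C (mean 1.83%), above 0.823%, 0.707% and 0.945% in the splenic libraries (mean 0.825%). The log2 fold was 1.11 ± 0.31 SE and missed the threshold (edgeR, adjusted p = 0.523, 128 pairs tested). Of these 15, 10 and 17 TIL rearrangements, 11, 5 and 8 could be turned into a productive sequence of the same library by 1 inserted or deleted base. Without all such out-of-frame rearrangements the pair held 0.759%, 0.917% and 1.03% in TILs and 0.780%, 0.673% and 0.953% in the spleen, and the groups overlapped.

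Out-of-frame rearrangements 1 inserted or deleted base away from a productive one made up 15.9%, 20.2% and 15.9% in TILs (mean 17.4%) against 6.72%, 7.02% and 6.00% in the spleen (mean 6.58%). Their part in the V gene comparison of out-of-frame rearrangements was not tested.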

How the results depend on the processing

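TCRBV19-01 with TCRBJ02-01 was higher in TILs under all 16 alternatives (log2 fold 1.11 to 2.84, and 1.59 to 1.95 leaving out 1 experiment) and passed in 14. It missed with DESeq2 under a mean dispersion (adjusted p = 0.0530), the DESeq2 fit run first (DESeq2 was planned without naming a dispersion fit), and among out-of-frame rearrangements (adjusted p = 0.523). The parametric and local fits, which called it, were tried only after that miss, 3 dispersion fits in all, so the DESeq2 verdict depends on the fit. TCRBV12-01 with TCRBJ02-03 missed in 9 of 15 alternatives and turned to 0.52 out of frame. Tyrosine turned to -0.20 with a minimum of 2 templates and passed the threshold in that direction (edgeR, adjusted p = 0.0164).

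Counts of calls moved as follows. Without the replicate block, V genes by unique rearrangement had 2, V genes by template 4 and V-J pairs 5 calls, and the block moved no other count by over 1.5 times. With all 12 libraries fitted together these counts were 3, 5 and 6, and J genes by template had 2 and residues 1. With DESeq2, V genes by template had 2, J genes by template 1, V-J pairs 0 and residues 0. With TMM, V-J pairs had 1 and residues 0. At equal depth, V genes by template had 3, J genes by unique rearrangement 0, V-J pairs 1 and residues 0. With a minimum of 2 templates, V genes by unique rearrangement had 2, J genes by unique rearrangement 9 and by template 4, V-J pairs 14 and lengths 3. V-J pairs had 1 call with each of the parametric and local DESeq2 fits and without CDR3s found in more than 1 library, and 0 out of frame. Without the TCRBV19-01 TCRBJ02-01 pair, J genes had 0 and residues 2. Without a filter, out-of-frame V genes had 1. Leaving out 1 experiment gave 0 calls for V genes by template whichever was left out, 0 to 1 for J genes by unique rearrangement, 0 to 3 for J genes by template, 1 to 3 for V-J pairs, 0 to 2 for residues and 0 to 1 for lengths. The causes were not tested.

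The mean length difference, 0.00528 residues, was 0.195 with a minimum of 2 templates and 0.0470 at equal depth, turned to -0.0375 residues weighted by templates and ran from -0.00428 to 0.0202 leaving out 1 experiment. The difference in inserted bases ran from 0.00119 to 0.0804 leaving out 1 experiment. Mean shared clones, 161, were 69.8 at equal depth, 74 with a minimum of 2 templates and 291 by CDR3 amino acid sequence. TIL A, with 5893 templates, limits what could be seen at low shares.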

Other observations

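The share of rearrangements seen as a single template differed between J genes in both groups. In the spleen it ran from 21.7% (TCRBJ02-07) through 39.2% (TCRBJ01-03) and 43.5% (TCRBJ01-05) to 96.4% (TCRBJ01-01 and TCRBJ01-06), and in TILs from 21.3% to 79.4% for the same end points of TCRBJ02-07 and TCRBJ01-01. A minimum of 2 templates therefore removed nearly all splenic rearrangements of some J genes and few of others.

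Clones shared by TILs and splenic CD27loCX3CR1lo cells had a mean CDR3 length of 13.75, 13.75 and 13.79 residues in experiments A, B and C. TIL clones not found in the CD27loCX3CR1lo library had 13.98, 13.96 and 13.99. TCRBV19-01 was used by 16.7%, 14.5% and 13.8% of the shared clones. It made up 9.20%, 9.30% and 10.6% of TIL rearrangements and 7.44%, 7.68% and 7.22% of splenic ones.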
